A study of Mus musculus with 4 samples.

Results

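The genes described here are 10 markers of macrophages and monocytes: Csf1r, Adgre1, Tyrobp, Lyz2, Cd68, Cd14, C1qa, C1qb, Apoe and Clec7a. They were taken by name, and every probe set that carries 1 of these symbols in the annotation of the array was used, which gave 14 probe sets for the 10 genes, out of 45037 probe sets for 18193 named genes. Expression was measured on 4 Affymetrix arrays with RNA of IgA+ cells sorted from the small intestine of untreated female wild-type (WT) Balb/c mice aged 9 weeks. The arrays hold 2 fractions, CD11b+ IgA+ cells and CD11b- IgA+ cells, with 2 arrays each. CD11b, the product of Itgam, is an integrin chain carried by most myeloid cells, and IgA+ cells of the gut are mostly antibody-secreting plasma cells. For 1 array of each fraction, 1 µg of RNA was labelled with the One-Cycle kit, and for the other array 0.1 µg was labelled with the 3' IVT Express kit. Each kit therefore holds a CD11b+ and a CD11b- array, and differences are given within each kit. The labels name no separate animals or sorts behind the arrays of a fraction, so a p-value here reads the spread between these arrays alone, and that spread may be technical. In a sorted population, fewer cells of a type and less RNA per cell cannot be told apart.

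Macrophages and monocytes depend on signals through Csf1r, the receptor for the growth factors CSF1 and IL-34. They sense microbes with surface receptors such as CD14 and Dectin-1, pass several activating signals through the adaptor DAP12, digest what they engulf in lysosomes, and secrete lysozyme, complement C1q and apolipoprotein E. The lamina propria of the gut is rich in resident macrophages, which lie close to plasma cells, and none of these genes belongs to the usual signature of plasma cells.

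Signals are given after quantile normalization, which brings the arrays to 1 common distribution; before it, their 2% trimmed means were 73.8 and 90.3 in the CD11b+ arrays and 48.6 and 70.05 in the CD11b- arrays. A probe set was taken as low in signal when its mean log2 value over the arrays lay under that of a signal of about 9.51, the 40th percentile. Each gene was represented by its brightest probe set, and log2 differences, CD11b+ minus CD11b-, were taken after adding 3 to each signal, which understates the differences of weak genes. Itgam, which encodes the sorted protein, had signals of 189 and 109 in CD11b+ cells and 28.3 and 15.8 in CD11b- cells, with the One-Cycle kit first. Its log2 difference was 2.59, and it was nearly equal within the kits, at 2.61 and 2.57. Control probe sets at the 2 ends of a transcript read how intact the RNA is. For beta-actin the 3'/5' signal ratios were 1.43 and 1.61 in CD11b+ arrays and 1.90 and 1.84 in CD11b- arrays. For Gapdh they were nearly equal in the fractions, at 0.682 and 0.710 in CD11b+ arrays and 0.685 and 0.704 in CD11b- arrays. The part of RNA quality in the results below was not tested.

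Most of the markers were higher in CD11b+ cells, but by far less than Itgam, while Csf1r, Adgre1 and Tyrobp had differences near 0. Of the 10 genes, 9 passed the low-signal filter; C1qa did not. Among the 9, Lyz2, Cd68, Cd14, C1qb, Apoe and Clec7a (6 genes) were higher in the CD11b+ array of both kits, as were 31.6% of all 12645 genes tested, and Csf1r and Adgre1 (2 genes) were lower in both, as were 30.5% of all genes. Signals of the fractions did not overlap for Cd14, C1qb, Apoe and Clec7a (4 genes, all higher in CD11b+ cells), against 18.3% of all genes without overlap and higher, and 17.3% without overlap and lower. The median log2 difference of the 9 genes was 0.51, and 0.0027 over all genes tested. With limma, 0 of the 9 genes had an adjusted p under 0.05, and the same fit called 0% of all genes. An unadjusted p under 0.05 was found for 2 of them, Cd14 and C1qb, and for 842 of all genes. With the labelling kit as a block, Apoe and Clec7a (2 of 9) rose, while that model called 3.73% of all genes higher, and it called 0 of the 9 lower against 4.14% of all genes. Of all calls in that model 47.4% were higher, and 59% after centring each array on its median, relative to the shift of all genes. With 4 arrays and a block, a gene has 1 residual degree of freedom, and the calls lean on the spread of genes of like signal. The standard errors (SE) below are from the fit without the block, in which a difference between the kits adds to the spread. When limma took 1 spread for genes of any signal, the blocked model called 0 of 12645 genes, of which 1577 had an unadjusted p under 0.05.

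**Figure D1:**
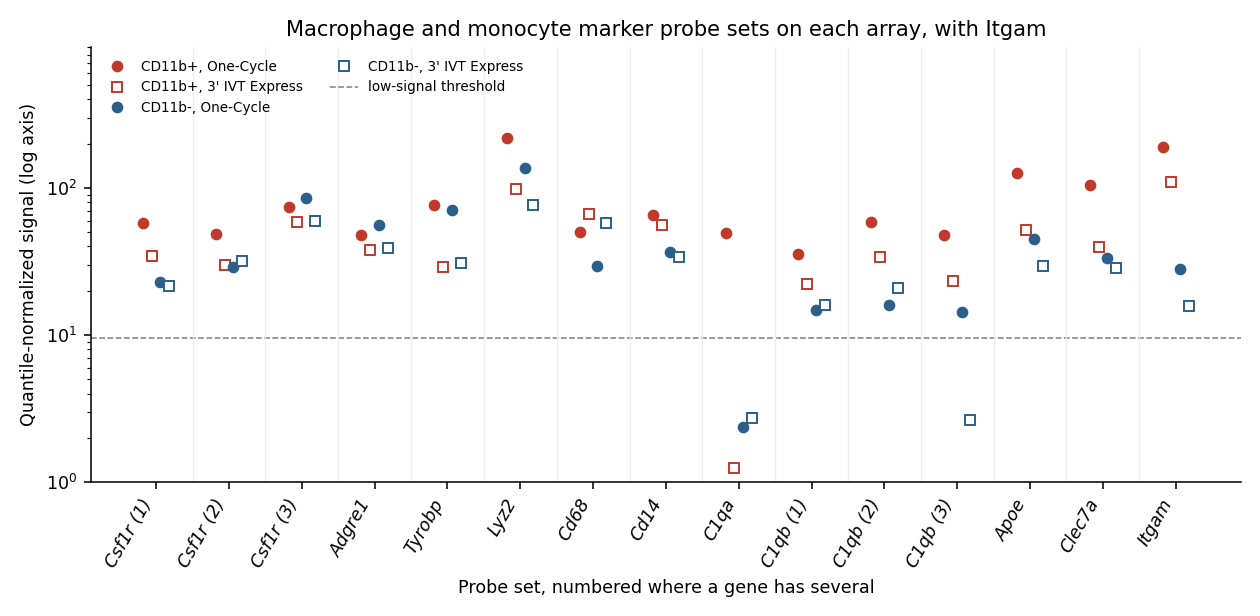
Quantile-normalized signal (log axis) of each of the 14 probe sets of the macrophage and monocyte markers, and of Itgam, on each array; red marks CD11b+ and blue CD11b- arrays, circles the One-Cycle kit and open squares the 3' IVT Express kit, and the dashed line is the low-signal threshold of about 9.51. The CD11b+ One-Cycle array is the highest for most probe sets, and C1qa lies above the threshold on that array only.

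Csf1r, the CSF1 receptor, is required by most tissue macrophages. Its brightest probe set had signals of 74.03 and 58.8 in CD11b+ cells and 85.8 and 59.2 in CD11b- cells, so the fractions overlapped. The log2 difference was -0.11 ± 0.30 (SE; limma adjusted p = 0.977, and 0.867 with the kit as a block), with a 95% interval from -0.83 to 0.61. The other 2 probe sets of Csf1r did not share that pattern. The first had 57.9 and 34.5 in CD11b+ cells and 23.0 and 21.4 in CD11b- cells, a log2 difference of 0.92 with no overlap. The second had 48.3 and 30.04 in CD11b+ cells and 29.0 and 31.6 in CD11b- cells, a difference of 0.31 with opposite signs in the 2 kits. The direction of Csf1r thus rests on which probe set is read.

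Adgre1 encodes F4/80, the adhesion receptor by which mouse macrophages are usually recognised. It had 48.03 and 38.1 in CD11b+ cells and 55.7 and 38.8 in CD11b- cells, a log2 difference of -0.11 ± 0.32 (SE; adjusted p = 0.977), with a 95% interval from -0.89 to 0.66. Tyrobp encodes DAP12, the adaptor that carries activating signals of receptors such as TREM2 and is also found in NK cells. Its signals followed the kit: 77.06 and 29.2 in CD11b+ cells, and 70.6 and 30.8 in CD11b- cells. Its log2 difference between the fractions was 0.025 ± 0.55 (SE), while the One-Cycle array stood above the 3' IVT Express array by 1.32 in CD11b+ cells and by 1.12 in CD11b- cells. The fractions overlapped for Adgre1 and Tyrobp, and the 95% interval of Tyrobp ran from -1.30 to 1.35. These intervals are from the fit without the block. With the kit as a block they ran from -0.59 to 0.38 for Csf1r, from -0.71 to 0.48 for Adgre1 and from -0.55 to 0.60 for Tyrobp.

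C1qa, C1qb and C1qc encode the 3 chains of C1q, which starts the classical complement pathway and is made by tissue macrophages; the genes lie side by side on chromosome 4. C1qb had 58.9 and 34.1 in CD11b+ cells and 16.1 and 21.01 in CD11b- cells, without overlap. It was 2.24-fold higher, a log2 difference of 1.16 ± 0.39 (SE; adjusted p = 0.653), with 1.69 and 0.63 within the One-Cycle and the 3' IVT Express kit. With the kit as a block its adjusted p was 0.0527, just over the threshold. In blocked fits it passed with the mean of all probe sets (0.0446) and with the filter on linear signals (0.0350). Its adjusted p was 0.383 on leaving out probe sets with names ending in _s, _x or _a, where another probe set stood for it. The other 2 probe sets of C1qb went the same way, at 0.76 and 1.88, also without overlap. C1qa had 49.6 and 1.25 in CD11b+ cells and 2.37 and 2.71 in CD11b- cells. It was thus well above the threshold on the CD11b+ One-Cycle array and far below it on the other 3, and it entered a fit only when the filter was dropped or set on linear signals (log2 difference 1.43, adjusted p = 0.931 and 0.926; 0.390 and 0.457 with the kit as a block). C1qc, no marker of the set but its neighbour, had 35.5 and 16.3 in CD11b+ cells and 15.2 and 18.8 in CD11b- cells, again highest on the CD11b+ One-Cycle array.

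The promoter of C1qb is shown because PU.1, the factor encoded by Spi1 on which macrophages depend, binds sites with a GGAA core. RefSeq promoter windows (GRCm38.p6) were found for 5 of the 10 genes (C1qb, Apoe, Clec7a, Lyz2 and Cd68). The 250 bases before the start site were searched for GGAAGT and for GAGGAA on both strands. GGAAGT was present for C1qb and Lyz2, 2 of the 5 genes, and in 19.7% of the 32851 windows of all genes. GAGGAA was present for C1qb, Apoe, Clec7a and Cd68, 4 of the 5 genes, and in 23.3% of the windows. A gene was counted when any of its windows held a match, and Apoe and Clec7a have several, so counts of genes and of windows are unlike. The stretch of C1qb is chr4:136886201-136886450, on the minus strand. Capitals mark GGAAGT only, matched on the strand opposite to the one printed, and the 1 match of GAGGAA is not marked. Each is a match of letters and not a site shown to be bound.
C1qb: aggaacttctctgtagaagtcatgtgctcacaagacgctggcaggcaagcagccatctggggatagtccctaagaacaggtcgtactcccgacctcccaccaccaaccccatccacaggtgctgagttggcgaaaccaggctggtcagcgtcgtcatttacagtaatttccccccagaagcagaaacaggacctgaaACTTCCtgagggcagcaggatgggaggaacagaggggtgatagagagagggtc

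Apoe encodes apolipoprotein E, a lipid carrier made by macrophages and also by other cells. It had 126 and 51.9 in CD11b+ cells and 44.7 and 29.6 in CD11b- cells, and its lowest CD11b+ signal lay above its highest CD11b- signal. It was 2.14-fold higher, a log2 difference of 1.10 ± 0.46 (SE; adjusted p = 0.749), with 1.44 and 0.75 within the kits. It rose in the fit with the kit as a block (adjusted p = 0.00947, 95% interval from 0.54 to 1.65). Clec7a encodes Dectin-1, a receptor for beta-glucans of fungal walls. It had 104 and 39.4 in CD11b+ cells and 33.2 and 28.4 in CD11b- cells, so that the CD11b+ One-Cycle array stood apart from the other 3. It was 2.00-fold higher, a log2 difference of 1.00 ± 0.47 (SE; adjusted p = 0.784), with 1.57 and 0.43 within the kits, and it rose in the blocked fit (adjusted p = 0.0436). Without the CD11b+ One-Cycle array, the log2 difference was 0.48 for Apoe and 0.33 for Clec7a. Without the CD11b+ 3' IVT Express array it was 1.72 and 1.67. Leaving out an array makes the kits uneven between the fractions, so a difference between the kits enters these values. Without the block neither gene passed even with all 4 arrays, and the blocked fit was not run with an array left out. How far the blocked calls rest on 1 array was therefore not tested. The call of Clec7a in the blocked fit was lost under the other 4 scalings tried, a pseudocount of 1 and no low-signal filter. It was also lost with 1 spread for genes of any signal. Leaving out probe sets with names ending in _s, _x or _a lost it too, with its own log2 difference unchanged at 1.00. Apoe lost its call with 1 spread for genes of any signal (adjusted p = 0.367).

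Cd14 encodes the co-receptor that hands lipopolysaccharide to the Toll-like receptor TLR4. It had 65.01 and 55.6 in CD11b+ cells and 36.4 and 34.0 in CD11b- cells, without overlap and with the smallest spread within the fractions among the 6 higher genes. It was 1.65-fold higher, a log2 difference of 0.73 ± 0.28 (SE; adjusted p = 0.728, and 0.134 with the kit as a block). The kits gave 0.79 and 0.66. On leaving out each array in turn, where the kits are uneven between the fractions, the difference ran from 0.62 to 0.83. Cd68 encodes macrosialin, a lysosomal membrane protein of phagocytes. It had 50.5 and 66.5 in CD11b+ cells and 29.6 and 57.7 in CD11b- cells, so the fractions overlapped, and the 3' IVT Express arrays were the higher ones. Its log2 difference was 0.45 ± 0.38 (SE; adjusted p = 0.913), with 0.71 and 0.20 within the kits. It was 0.0055 without the CD11b- One-Cycle array, 0.27 without the CD11b+ 3' IVT Express array and 0.90 without the CD11b- 3' IVT Express array.

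Lyz2 encodes the lysozyme of macrophages and neutrophils, and its neighbour on chromosome 10, Lyz1, the lysozyme of Paneth cells in the gut crypts. Lyz2 had 219 and 98.0 in CD11b+ cells and 136 and 76.2 in CD11b- cells, higher in CD11b+ cells within each kit but with overlap across kits. Its log2 difference was 0.51 ± 0.44 (SE; adjusted p = 0.917, and 0.0965 with the kit as a block), with 0.68 and 0.35 within the kits. It was -0.054 without the CD11b+ One-Cycle array and 0.11 without the CD11b- 3' IVT Express array, where the kits are uneven between the fractions. Lyz1 had 721 and 502 in CD11b+ cells and 1016 and 913 in CD11b- cells. It fell in the blocked fit (log2 difference -0.68, adjusted p = 0.000154), as did epithelial genes described below, and all 3 of its probe sets were lower with both kits. Since 2 of these 3 carry a name that marks possible cross-hybridisation (ending in _x), signals of the 2 lysozymes may not be fully separate, and how far they mix was not tested. The 250 bases before the start sites of Lyz2 and Lyz1 are printed to show how alike these upstream stretches are. They lie outside the transcripts, so they do not bear on the mixing of signals. Of 252 aligned positions, 200 were identical (79.4%), as were 92 of the 100 nearest the start. Both lie on the minus strand of GRCm38.p6, Lyz2 at chr10:117282273-117282522 and Lyz1 at chr10:117292869-117293118. Capitals mark GGAAGT on the opposite strand, found once in each.
Lyz2: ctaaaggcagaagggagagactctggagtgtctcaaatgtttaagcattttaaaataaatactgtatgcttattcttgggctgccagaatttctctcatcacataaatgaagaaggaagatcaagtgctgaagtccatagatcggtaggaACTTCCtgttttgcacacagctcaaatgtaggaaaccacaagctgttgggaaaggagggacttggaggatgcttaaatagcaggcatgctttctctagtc
Lyz1: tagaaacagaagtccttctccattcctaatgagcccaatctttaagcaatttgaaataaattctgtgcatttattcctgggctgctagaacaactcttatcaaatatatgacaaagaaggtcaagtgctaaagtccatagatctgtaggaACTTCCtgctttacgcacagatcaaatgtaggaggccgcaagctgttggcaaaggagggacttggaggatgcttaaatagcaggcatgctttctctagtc

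The differences were mostly larger between the One-Cycle arrays. This was so for 7 of the 9 genes, and for 49.1% of all genes. The CD11b+ One-Cycle array held the highest signal for 6 of the 9 genes, against 22% of all genes. The median difference of the 9 genes was 0.71 between the One-Cycle arrays and 0.35 between the 3' IVT Express arrays. The One-Cycle array was also the higher one within the fractions, for 8 of the 9 genes in CD11b+ cells and for 7 in CD11b- cells (47.4% and 49.3% of all genes). With 1 array per fraction and kit, whether the kits differ in the effect of the fraction was not tested, and kit, RNA amount and sample cannot be told apart.

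**Figure D2:**
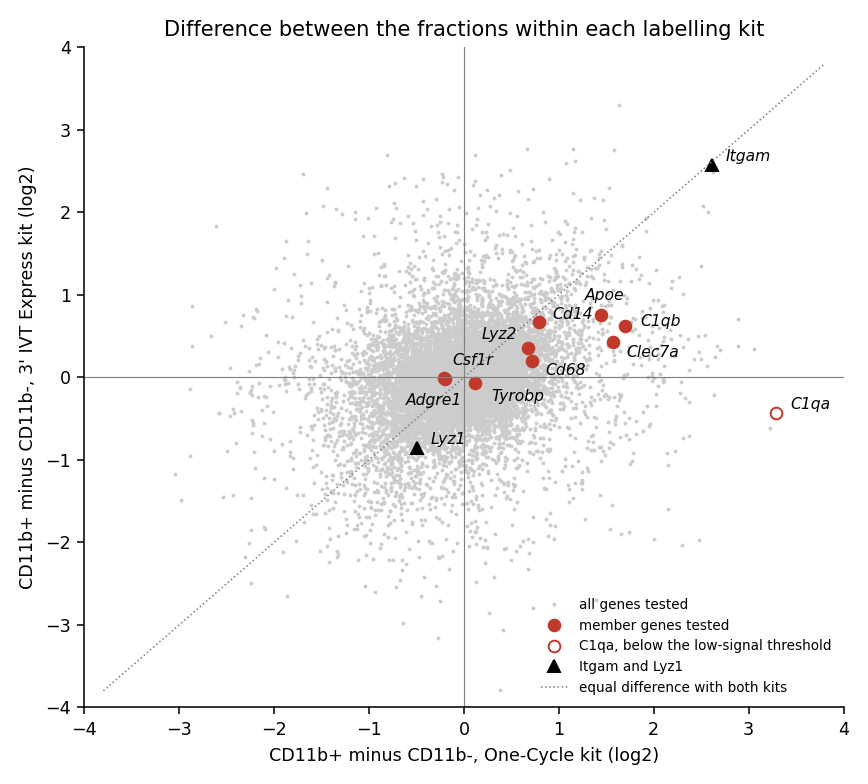
Difference between CD11b+ and CD11b- arrays (log2) within the One-Cycle kit, on the horizontal axis, and within the 3' IVT Express kit, on the vertical axis; grey points are the 12645 genes tested, red points the 9 marker genes, the open circle C1qa, and triangles Itgam and Lyz1. Itgam lies on the line of equal differences, at 2.61 and 2.57, while Apoe, C1qb and Clec7a lie to the right of it.

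**Figure D3:**
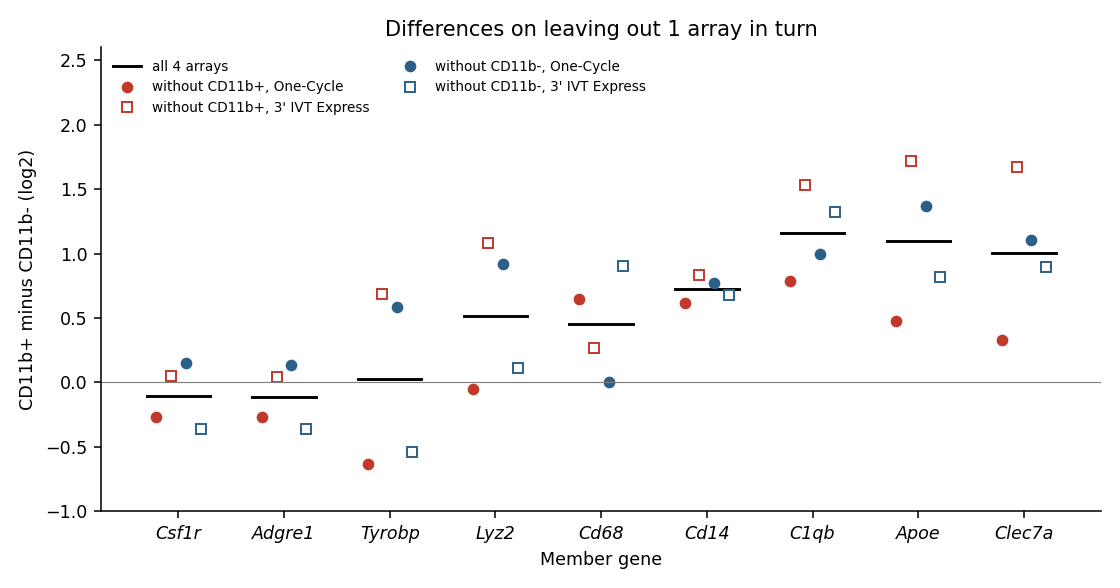
Log2 difference, CD11b+ minus CD11b-, of the 9 marker genes with all 4 arrays (black bars) and on leaving out each array in turn (red: a CD11b+ array left out, blue: a CD11b- array; circles: One-Cycle, open squares: 3' IVT Express). Cd14 moves least, from 0.62 to 0.83, and Tyrobp runs from -0.63 to 0.68. Leaving out an array makes the kits uneven between the fractions, so a difference between the kits enters these values.

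Other genes of macrophages and of the pathways around these markers gave no single direction. Of 30 further macrophage and monocyte markers, 28 were on the array and 18 were tested. Of these, 10 were higher with both kits and 5 lower, against 31.6% and 30.5% of all genes. Signals of the fractions did not overlap for 7 that were higher and 3 that were lower, against 18.3% and 17.3% of all genes. Their median log2 difference was 0.25. With the kit as a block 3 of them rose, namely Itgam, Itgax (CD11c, 0.85) and Il1b (1.52), against 3.73% of all genes. The 18 include Itgam, whose product the cells were sorted by, so its rise comes with the sort. In the same fit 1 fell, against 4.14% of all genes, namely Ctss (cathepsin S, -0.48), which cells that present antigen share. Fcgr1, the high-affinity IgG receptor, was at 0.030, with opposite signs in the 2 kits, and Fcgr3 at 0.76 (adjusted p = 0.427 in the blocked fit). Besides Fcgr3 and those that rose, the genes higher with both kits were Cd209a (1.18), Pld4 (1.13), Fcgr4 (0.47), Sirpa (0.33), Mpeg1 (0.30) and Ms4a7 (0.11). None of them passed, and Cd209a, Pld4, Sirpa and Mpeg1 were without overlap. The 4 other genes lower with both kits were Mertk, an efferocytosis receptor of resident macrophages (-0.56, without overlap), Tnf (-0.63), Cybb (-0.17) and Lgals3 (-0.15), and none of them passed. The other 10 of the 28, Cx3cr1, Mrc1, Cd163, Aif1, Trem2, Cd209b, Lst1, Marco, Vsig4 and Ccl2, lay under the low-signal threshold in their mean log2 value, though not on every array. Their signals ran from 1.49 to 24.03 and from 0.294 to 15.5 on the CD11b+ arrays, and from 1.36 to 11.0 and from 0.866 to 20.6 on the CD11b- arrays. The summed signal of the 18 tested markers was 3693 and 3639 in CD11b+ cells and 4348 and 3936 in CD11b- cells, most of it from Ctss and Cybb, which B lineage cells also express. Over the 9 members the sum was 824 and 472 in CD11b+ cells and 508 and 376 in CD11b- cells, so the fractions overlapped.

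The list around Csf1r also holds receptor chains for other colony-stimulating factors and transcription factors, so it does not read CSF1 receptor signalling alone. Of its 10 tested genes 3 fell in the blocked fit, against 4.14% of all genes, and 0 rose, against 3.73%, with a median of -0.37. The 3 were Csf1 and the transcription factor genes Irf8 and Cebpb. Cebpb had 203 and 469 in CD11b+ cells and 298 and 921 in CD11b- cells, so the fractions overlapped. Csf1, a ligand of Csf1r, had 1.21 and 8.81 in CD11b+ cells, under the low-signal threshold, and 17.9 and 50.5 in CD11b- cells. Spi1, the gene of PU.1, was at 0.091, and Csf2ra, a receptor chain for GM-CSF, at 0.86 (adjusted p = 0.0700 in the blocked fit). The same shares of all genes stand beside the calls of the lists that follow. Around Tyrobp, 0 of 6 tested adaptor and partner genes were called. Fcer1g, the Fc receptor gamma chain that also pairs with receptors of this kind, was at 0.25 and the kinase Syk at 0.13. Around Cd14, 0 of 5 tested genes of lipopolysaccharide sensing were called, with Ly96, the TLR4 partner MD-2, at 0.17, Tlr2 at 0.039, and Tlr4 under the low-signal threshold. Around Clec7a, 1 of 6 genes of Dectin-1 signalling, the kinase gene Prkcd, fell (-0.42), and Malt1 and Bcl10 were at 0.37 and -0.028.

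In the complement list, 0 of 5 tested genes were called, and all 5 had opposite signs in the 2 kits. Of all 12645 genes tested, 4786 were neither higher nor lower with both kits. The 5 genes were C1qc, C2, Serping1, C3ar1 and Cfb, of which C3ar1 and Cfb reach beyond the classical pathway. Around Apoe, 0 of 7 tested genes of lipid efflux were called, and 5 of them were higher with both kits, against 31.6% of all genes. The cholesterol exporters Abca1 and Abcg1 were at 0.31 and 0.24. Of 13 lysosome and phagosome genes, to which Cd68 is related, 2 rose (Ctsh and Ctsz, cathepsins) and 3 fell (Lamp2, Ctsb and Psap), with a median of 0.023; Lamp1 was at 0.26 and Lamp2 at -0.40.

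**Figure D4:**
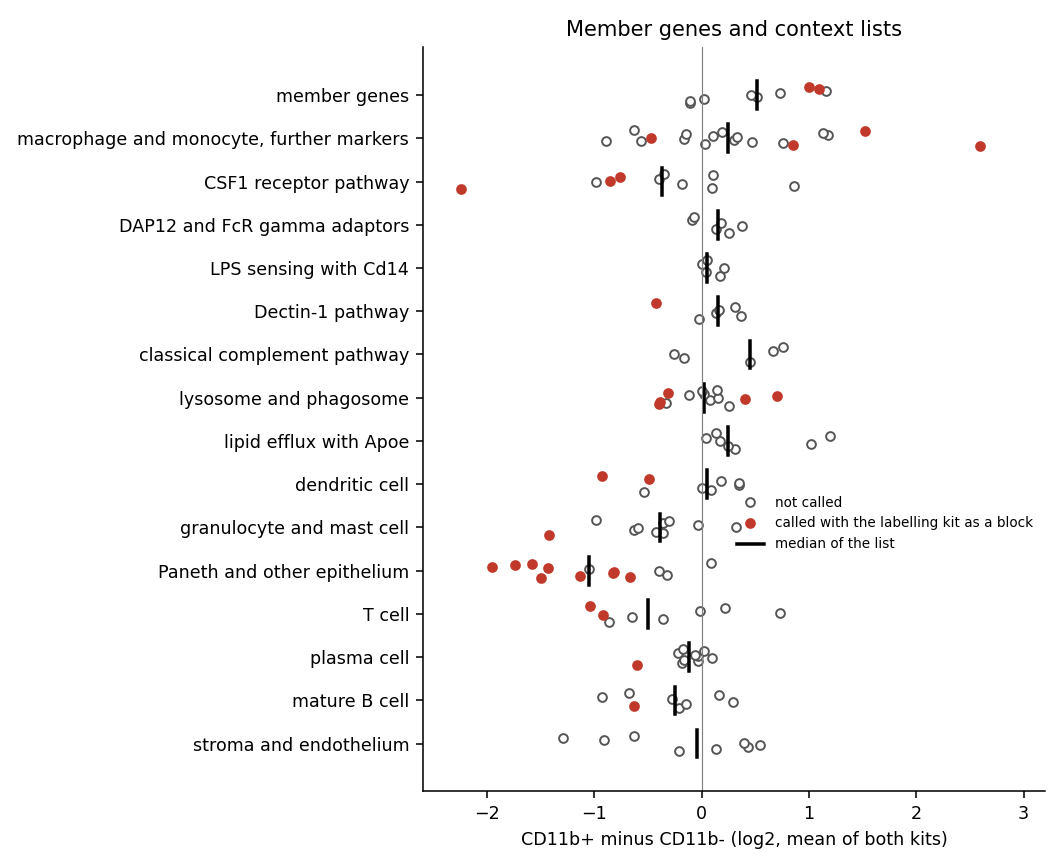
Log2 difference, CD11b+ minus CD11b-, of the tested genes of each list; filled red points passed with the labelling kit as a block, open points did not, and black bars are list medians. The marker genes have a median of 0.51 and the epithelial list one of -1.05.

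Genes of other cell types were read on the same arrays, since a sorted fraction can hold several. In the blocked fit 4.14% of all genes fell and 3.73% rose, and these shares stand beside the calls of each list here. In the epithelial list 9 of 13 tested genes fell and 0 rose, with a median of -1.05. Its summed signal was 2609 and 1964 in CD11b+ cells and 4797 and 4645 in CD11b- cells. Granulocyte and mast cell genes had a median of -0.39, with 1 of 10 called (Prg2, lower), sums of 341 and 249 in CD11b+ cells and 495 and 357 in CD11b- cells, and S100a8, S100a9 and Epx under the low-signal threshold. Of 8 dendritic cell genes 2 fell (Bst2 and Itgae, each also found on other lymphoid cells) and 0 rose, with a median of 0.045 and sums of 691 and 883 in CD11b+ cells and 858 and 1024 in CD11b- cells. T cell genes had a median of -0.50 (2 of 8 fell, Cd8a and Nkg7), with sums of 477 and 319 in CD11b+ cells and 886 and 386 in CD11b- cells. Mature B cell genes had a median of -0.24 (1 of 8 fell, Cd79a), and their sums were 2760 and 1888 in CD11b+ cells and 4523 and 1907 in CD11b- cells. Genes of stroma and endothelium had a median of -0.040, with 0 of 8 called and sums of 178 and 210.2 in CD11b+ cells and 166 and 235 in CD11b- cells. All 10 plasma cell genes were tested, with a median of -0.12 (1 fell, Sdc1), and sums of 42222 and 43504 in CD11b+ cells and 43879 and 46478 in CD11b- cells. The part of other cells in the values of the macrophage markers was not tested.

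Among all genes tested, the profile over the 4 arrays nearest to that of each marker was found by Euclidean distance of centred log2 values. For Cd14 it was that of Cxcl3, a chemokine gene, at 0.0124, for C1qb that of Dlgap5 at 0.130, for Apoe that of Fignl1 at 0.245 and for Clec7a that of Tut1 at 0.240. For Tyrobp it was Ywhae at 0.0663, for Lyz2 Dnah2 at 0.149, for Cd68 Atad2b at 0.0438, and for both Csf1r and Adgre1 Senp1, at 0.0168 and 0.00994. Within the set, Csf1r and Adgre1 were 0.0177 apart and Apoe and Clec7a 0.275, while every other marker was at least 0.552 from its nearest fellow marker. The profiles have 4 points each, and the distances only describe these arrays.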

How the data were processed

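The deposited values are linear intensity, 1 signal per probe set; the submitters' processing notes name MAS5 and Affymetrix Expression Console, and the sources used here give neither versions nor a scaling target. Of 45101 probe sets, 64 are controls; of the rest 34945 carry 1 gene, 932 several and 9160 are unnamed here. Symbols come from the platform annotation, and 0 needed updating against the gene table of GRCm38.p6. Quantile normalization, log2 after adding 3, a filter at the 40th percentile of the mean log2 signal and the brightest probe set per gene preceded limma 3.58.1 (R 4.3.3; trended eBayes, 2-sided tests, Benjamini-Hochberg adjustment over 12645 genes). An exact permutation of 2 arrays against 2 gives no p under 0.333, so none is printed. Replicate numbers, given in accession order, pair nothing; the blocked fit uses the labelling kit, and deviations of same-kit arrays from their fraction means correlated across genes (r = 0.387). Genes named are the 10 members, Itgam, Lyz1, the first 4 of each of 16 lists, the nearest profiles and counts of 5 or fewer. The 10 further macrophage markers of low signal and those higher with both kits were chosen after their values were seen. So were the genes of the other observations. Members and lists were chosen with earlier results of these data known; 164 of 181 listed genes were on the array, and the others are not analysed here. The number of arrays limits the precision.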

Additional observations from a re-analysis of the deposited data

How the results depend on the processing

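The alternatives were 4 other scalings, pseudocounts of 1 and 12, a filter at the 70th percentile or none, averaging a gene's probe sets, dropping those with names ending in _s, _x or _a, the kit as a replicate block, no trend, leaving out each array in turn and, chosen after seeing the data, a filter on linear signals and the block combined with each other setting. Signals as deposited and median centring shifted the median of all genes by 0.42 and 0.23, and values are relative to that shift. Members called were 0 under all of these but the block, where they were 2. With the block they were 1 (Apoe) under the other 4 scalings, a pseudocount of 1, no filter and the 70th percentile (where Clec7a is not tested), 0 without the _s, _x and _a probe sets (Apoe then has none) and without a trend, 2 with a pseudocount of 12, and 3 (C1qb too) with averaged probe sets and with the filter on linear signals. Over all genes the block gave 996 calls, 437 without those probe sets and 0 without a trend. With the block, the other 4 scalings gave 671 to 925 calls, and pseudocounts of 1 and 12 gave 697 and 950. No filter gave 683 calls of 18193 genes, and the 70th percentile 760 of 7547. Averaged probe sets gave 746 calls and the filter on linear signals 1151. The higher share was 47.4% in the main setting, and 59% after centring. Leaving out CD11b+ replicate 1 (One-Cycle) or 2 without the block gave 24 and 4 calls over all genes. Members higher with both kits were 3 at the 70th percentile, where 4 were tested; those lower were 1 there, 1 with the mean of all probe sets and 0 without the _s, _x and _a ones. Csf1r turned to 0.37 and 0.92 under the last 2 settings. Tyrobp turned to -0.055 as deposited and after centring and to -0.093 with a common trimmed mean. On leaving out 1 array, the members' median ran from 0.33 to 0.83, Csf1r from -0.36 to 0.15, Adgre1 from -0.36 to 0.13, Tyrobp from -0.63 to 0.68 and Lyz2 from -0.054 to 1.08; this leaves the kits uneven. The other 5 tested members kept their direction under every setting that gave them a value. The block with 1 array left out has no residual degrees of freedom and was not run. Signals near the low-signal threshold limit C1qa and the smaller C1qb values.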

Other observations

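Further macrophage and lysosome genes, picked after their values were seen, are given in both directions. Mertk had 18.2 and 19.6 in CD11b+ cells and 29.2 and 29.4 in CD11b- cells, lower without overlap (limma adjusted p = 0.490 with the kit as a block). Tnf, a cytokine gene, had 18.0 and 11.7 in CD11b+ cells and 35.8 and 15.9 in CD11b- cells, lower within each kit but with overlap. Ccr2, a chemokine receptor gene of monocytes, had 7.50 and 28.1 in CD11b+ cells and 33.3 and 28.05 in CD11b- cells, lowest on the CD11b+ One-Cycle array. Pld4, a lysosomal nuclease of phagocytes and dendritic cells, had 42.5 and 40.04 in CD11b+ cells and 19.1 and 15.6 in CD11b- cells, higher without overlap (adjusted p = 0.0611 with the kit as a block). Aif1, also called Iba1, had 19.6 and 15.5 in CD11b+ cells and 3.54 and 2.93 in CD11b- cells. Its CD11b+ signals lay above the low-signal threshold, but its mean log2 value lay under it, so it was not tested. Marco, a scavenger receptor gene, was under the threshold too, with 1.49 and 9.86 in CD11b+ cells and 1.66 and 20.6 in CD11b- cells. Ctsh, the lysosomal protease cathepsin H, had 329 and 370 in CD11b+ cells and 184 and 249 in CD11b- cells, and rose with the kit as a block (adjusted p = 0.00147).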
